A study of Mus musculus with 464 samples.

Results

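The clustered protocadherins are cell-surface adhesion proteins of the cadherin superfamily, encoded in 3 neighbouring gene clusters named alpha, beta and gamma. They were taken as every row of the expression table whose symbol begins with Pcdha, Pcdhb or Pcdhg followed by the number or letter of a cluster member. This rule gave 57 of 21973 listed genes, with 13 members in the alpha cluster, 22 in the beta cluster and 22 in the gamma cluster. Of the alpha members, 11 are alternate isoforms and 2 are C-type isoforms. The gamma members comprise 12 of the A type, 7 of the B type and 3 of the C type. Pcdha10 was not among the listed genes and so was not analysed here. In the RefSeq annotation of GRCm38.p6, which is the mm10 build, all members lie on chromosome 18. The alpha members span bases 36930285 to 37188897, the beta members 37264998 to 37521419 and the gamma members 37661775 to 37841873.

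The data are single-cell RNA sequencing of the mouse embryonic stem cell line R1, in which every library carries the same label, so that there is 1 group. Before differentiation the cells were grown with 15% serum replacement and LIF at 1000 U/ml. Embryoid bodies, which are aggregates of differentiating stem cells, formed in hanging drops over 48 hours and were then held for 4 days in retinoic acid, whose dose the labels give as 0.5 mM. Capture was on a Fluidigm C1 chip, and full-length cDNA was made with SMART-Seq V4 chemistry and turned into libraries with Nextera XT, without molecular identifiers. There was no untreated group, only 1 cell line was used, and the labels name no separate cultures. Cells of 1 sample are not replicates, so every comparison below is a description of these cells, with no p-value.

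Each clustered protocadherin variable exon has its own promoter, and a neuron switches on a small subset of these promoters. The proteins bind matching isoforms on neighbouring membranes, and the combination that a neuron carries is known for its part in self-recognition of dendrites and axons and in neuronal survival. In alpha and gamma transcripts the variable exon is spliced to constant exons shared by the whole cluster, whereas each beta gene is a single-exon gene without a shared constant part. C-type isoforms are regulated apart from the alternate ones.

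In the annotation, all 13 alpha members and all 22 gamma members overlap another member of their cluster, and 0 of the 22 beta members do. The division of reads among alpha members and among gamma members is therefore less certain than the beta values. A value of exactly 0 can also be a failed estimate, so such members are described as listed at 0. Strand use in the counting is not given in the sources used here.

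A minimum of 2000 genes above 0 and a maximum of 20% mitochondrial expression removed 6 cells. Levels are in TPM, a share of transcripts corrected for gene length, and keep no sequencing depth. The number of genes above 0, with a median of 6742.5 in the kept cells, stands in for it. By their names the columns form 2 sets, with 48.9% and 51.1% of the kept cells. Of the set 1 columns, 55 had a near copy in set 2 (correlation above 0.93 across 13756 genes), and values called distinct use only the set 1 column of each such pair.

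Cells were assigned to states by the number of detected markers (1 TPM or more) on lists of 10. The neuron state held cells with 6 or more neuron markers such as Stmn2, Dcx and Elavl3 and fewer than 6 endoderm markers. The progenitor state held cells with 6 or more neural progenitor markers such as Pax6, Sox2 and Hes5 and fewer than 6 markers of each other list. The endoderm state held cells with 6 or more endoderm markers such as Gata4, Sox17 and Dab2 and fewer than 6 of each other list. The progenitor state held 92 cells of set 1 and 82 of set 2, the neuron state 72 and 82, and the endoderm state 35 and 30 (65 cells). A further 52 cells, called mixed, had 6 or more endoderm markers together with 6 or more of another list, and 13 cells reached no list.

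These states are ranges of a marker count and not discrete types. Exactly 5 or 6 markers were found in 73 cells for the neuron list, 53 cells for the progenitor list and 15 cells for the endoderm list. Neuron cells still carried a median of 8 progenitor markers, beside 9 neuron markers. The median gene number was 6640.5 in progenitor cells, 6947 in neuron cells, 6034 in endoderm cells and 8065 in mixed cells. Markers of other cell types were uneven as well. The pluripotency gene Zfp42 was detected in 73.8% of endoderm cells, 7.47% of progenitor cells and 8.44% of neuron cells, and the neural crest gene Foxd3 was detected in 22.1% of neuron cells. The summed level of the 5 pluripotency markers ran from 0 to 141.6 TPM in endoderm cells, where Nanog, Esrrb and Dppa3 were listed at 0. The 4 neural crest markers summed to between 0 and 96.5 TPM in neuron cells and between 0 and 115.01 TPM in progenitor cells. The part of these markers in the protocadherin results was not tested.

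Most neuron cells held several clustered protocadherin isoforms, most progenitor cells held 1 or a few, and most endoderm cells held none. Over all kept cells the number of members detected per cell ran from 0 to 18 with a median of 2, and 81.2% of cells had at least 1. In the progenitor state the lowest number was 0, the median 1 (95% interval 1 to 2) and the highest 7. In the neuron state the lowest was 0, the median 4 (3 to 5) and the highest 18. In the endoderm state the lowest was 0, the median 0 (0 to 1) and the highest 3. The median intervals of the neuron and progenitor states did not overlap, although the single-cell values did.

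The mean number of members was 1.86 in progenitor cells, 4.51 in neuron cells and 0.646 in endoderm cells. At least 1 member was detected in 77.6% of progenitor cells (exact 95% interval 70.7 to 83.5), 97.4% of neuron cells (93.5 to 99.3) and 43.1% of endoderm cells (30.8 to 55.96). These values count both columns of each near-copy pair, which narrows the intervals. In distinct cells the shares were 76.9% (69.2 to 83.4), 97.2% (92.9 to 99.2) and 44.8% (31.7 to 58.5), and the medians were the same. Intervals of shares are Clopper-Pearson and those of medians come from order statistics, and both cover the drawing of cells only. Cells with 5 or more members made up 10.9% of the progenitor state (19 cells) and 45.5% of the neuron state (70 cells). No endoderm cell of 65 reached 5 members, which allows a share of up to 5.52%. Mixed cells, which also had the most genes, had a median of 3 members. The order of the states was the same in both column sets, with means of 1.96 and 1.74 in progenitor cells, 4.42 and 4.59 in neuron cells, and 0.686 and 0.6 in endoderm cells.

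**Figure D1:**
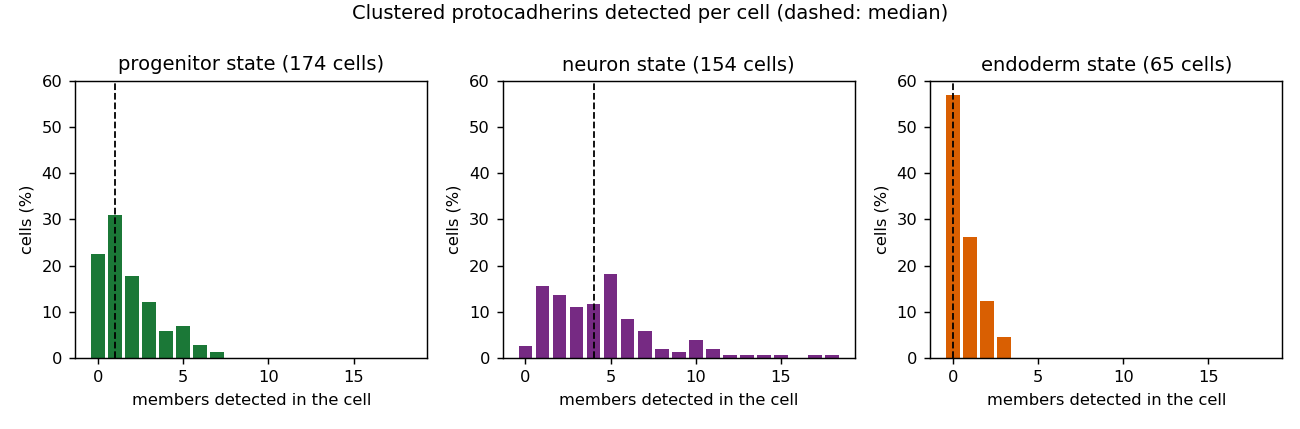
Percentage of cells (vertical axis) by the number of the 57 members detected at 1 TPM or more (horizontal axis), with a panel for each marker state. Dashed lines mark medians, which are 1 in the progenitor state, 4 in the neuron state and 0 in the endoderm state.

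The 15 cells with 10 or more members were all in the neuron state, 7 in set 1 and 8 in set 2, and none was a near copy of another. They held a median of 8 beta members, against 2 in the other neuron cells, and 14 of the 15 had all 10 neuron markers. They also had more genes above 0, with a median of 8122 against 6913. Their median endoderm marker count was 0.

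Cells with more genes above 0 had more members detected. Kept cells were divided into 3 bins, of 2059 to 6137, 6138 to 7288 and 7291 to 10256 genes. Mean members per cell were 1.32, 1.62 and 2.88 across these bins in progenitor cells, and 3.02, 3.89 and 5.95 in neuron cells. In endoderm cells they were 0.543, 0.654 and 1.5, the last from 4 cells only. Neuron cells had the highest mean and endoderm cells the lowest within every bin. Across distinct cells, the number of members and the number of genes correlated with Pearson r = 0.36 and Spearman rho = 0.35 in the progenitor state (92 cells of set 1 and 55 of set 2) and with r = 0.47 and rho = 0.45 in the neuron state (72 and 69). Both counts come from the same library and share its depth.

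**Figure D2:**
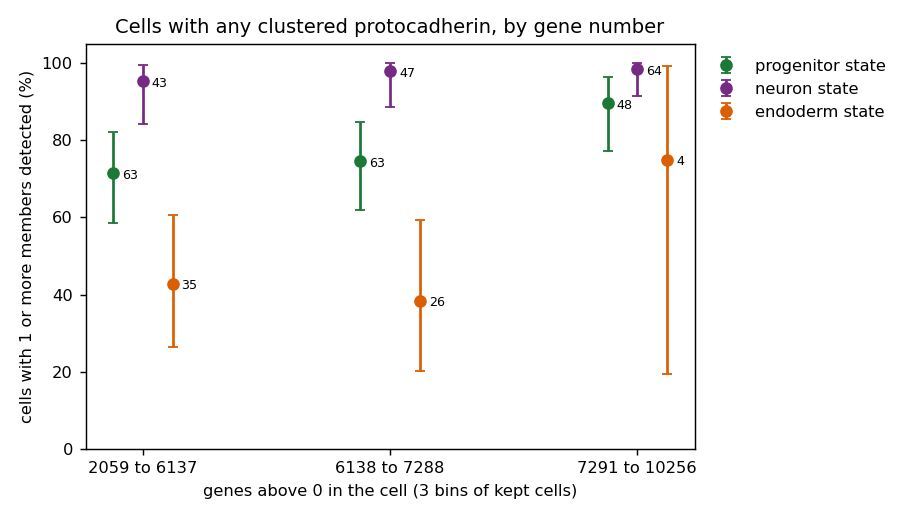
Percentage of cells with at least 1 member detected (vertical axis) in 3 bins of genes above 0 (horizontal axis), by state, with exact 95% intervals and the number of cells beside each point. In the lowest bin the shares were 71.4% in progenitor, 95.3% in neuron and 42.9% in endoderm cells.

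Members were also counted along the neuron marker list itself, in cells with fewer than 6 endoderm markers. The mean was 0.92 members in 25 cells with 1 neuron marker, 2.06 in 47 cells with 3 markers, 3.16 in 43 cells with 6 or 7 markers and 6.20 in 61 cells with all 10. The beta cluster went from a mean of 0.44 members to 4.10 between cells with 1 and cells with 10 neuron markers, the gamma cluster from 0.48 to 1.46 and the alpha cluster from 0 to 0.639. The median gene number at these 2 ends was 5677 and 7098. Only 4 cells had no neuron marker, with a mean of 2 members.

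**Figure D3:**
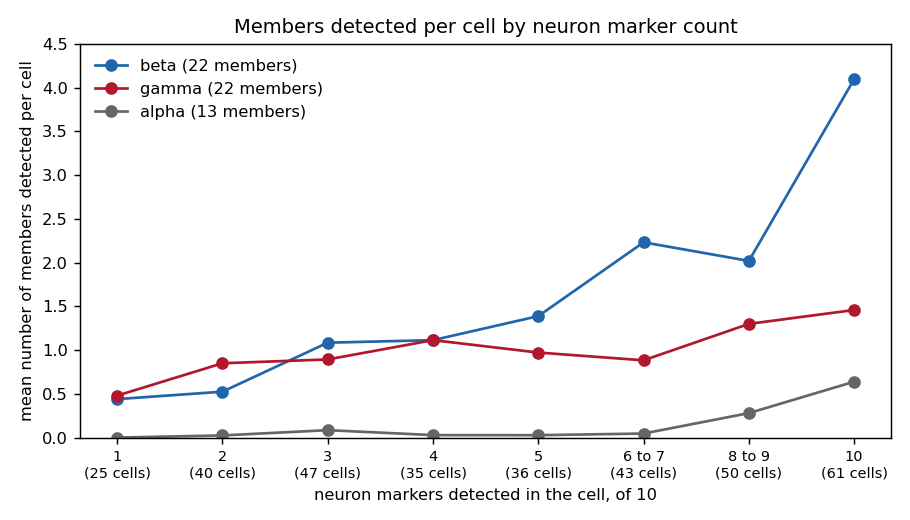
Mean number of alpha, beta and gamma members detected per cell (vertical axis) by the number of neuron markers detected (horizontal axis), in cells with fewer than 6 endoderm markers. The beta mean reaches 4.10 in cells with all 10 neuron markers, where the gamma mean is 1.46 and the alpha mean 0.639.

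The 3 clusters differed in how far their detection differed between states. Of the progenitor, neuron and endoderm states, each cluster was detected most often in neuron cells and least often in endoderm cells. At least 1 beta member was detected in 46.6% of progenitor cells, 89.6% of neuron cells and 7.69% of endoderm cells. At least 1 gamma member was detected in 62.6%, 74.03% and 40% of the cells of these states. Without the C-type member Pcdhgc4 these gamma shares were 34.5%, 52.6% and 23.1%. At least 1 alpha member was detected in 2.30%, 27.9% and 1.54%. The alpha shares of progenitor and endoderm cells rest on 4 and 1 cells, with overlapping intervals (0.63 to 5.78 and 0.039 to 8.28). The gamma shares of neuron and progenitor cells were close in set 1, at 68.1% and 67.4%, and further apart in set 2, at 79.3% and 57.3%. The summed level of all members had a median of 14.02 TPM in progenitor cells (95% interval 10.2 to 17.7), 45.9 TPM in neuron cells (38.5 to 53.2) and 0.34 TPM in endoderm cells (0 to 2.68). Single cells reached at most 164.2, 279.2 and 52.4 TPM, so the states overlapped.

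Beta members made up 49.4% of the summed member level in progenitor cells and 70.2% in neuron cells, but 14.5% in endoderm cells. Gamma members made up 49.98%, 24.5% and 82.03%. A large part of this was Pcdhgc4, and the gamma members without it made up 23.8%, 13.7% and 31.5%. In mean summed level per cell, the beta cluster stood at 10.2, 38.6 and 0.979 TPM in progenitor, neuron and endoderm cells, and the gamma cluster at 10.4, 13.5 and 5.55 TPM. The alpha cluster stood at 0.134, 2.91 and 0.238 TPM. The beta cluster thus held most of the difference in summed level between neuron and progenitor cells, with smaller parts from gamma and alpha members.

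Detection was sparse for single members. The median member was detected in 2.62% of kept cells, and the median level of every member was 0 TPM in the progenitor, neuron and endoderm states. Among all 57 members, 5 alpha members (Pcdha1, Pcdha2, Pcdha6, Pcdha7 and Pcdha8) were listed at 0 in every kept cell, and Pcdhgb1 was above 0 but never reached 1 TPM. Detection in at least 10% of the kept cells was reached by 7 members, namely Pcdhb6, Pcdhb11, Pcdhb17, Pcdhb20, Pcdhb21, Pcdhb22 and Pcdhgc4. The detected share was higher in neuron than in progenitor cells for 46 of the 57 members, lower for 5 and equal for 6. For all 21973 genes these counts were 9661, 6851 and 5461.

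For levels, a gene was called higher or lower by size, when the means of the 2 states differed at least 2-fold after adding 0.01 TPM to both. Only genes detected in at least 10 kept cells were called, which 35 members passed (2 alpha, 20 beta and 13 gamma). A sparse member can pass this minimum through the state where it is high, so the counts among these 35 describe them only. By this rule, 24 of the 35 were higher in neuron than in progenitor cells (2 alpha, 16 beta and 6 gamma), where 14.7% of all 13756 genes tested were higher. Only Pcdhb14 was lower, where 6.99% of all genes tested were. Among genes detected in 10 to 100 cells, which are about as sparse as the members, 32.2% were called higher and 16.2% lower. The median log2 fold change was 1.91 over the 35 members, 2.57 over the 20 beta members and 0.28 over the 13 gamma members, beside 0.04 over all genes tested.

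A stricter call also required that the 95% intervals of the detected shares did not overlap. It was met by 10 members in the higher direction (Pcdha4, Pcdha11, Pcdhb2, Pcdhb3, Pcdhb5, Pcdhb10, Pcdhb11, Pcdhb16, Pcdhb17 and Pcdhb21), where 6.82% of all genes tested and 10.9% of genes detected in 10 to 100 cells met it. No member met it in the lower direction, where 1.05% of all genes tested and 0.578% of genes detected in 10 to 100 cells did. With 1 column of each near-copy pair, 9 of these 10 still met it, Pcdhb20 met it and Pcdhb5 did not. Within set 1 alone 5 of the 10 met it and within set 2 alone 5 did, with Pcdhb3 and Pcdhb17 in both. All 10 had the higher detected share in neuron cells in each set.

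**Figure D4:**
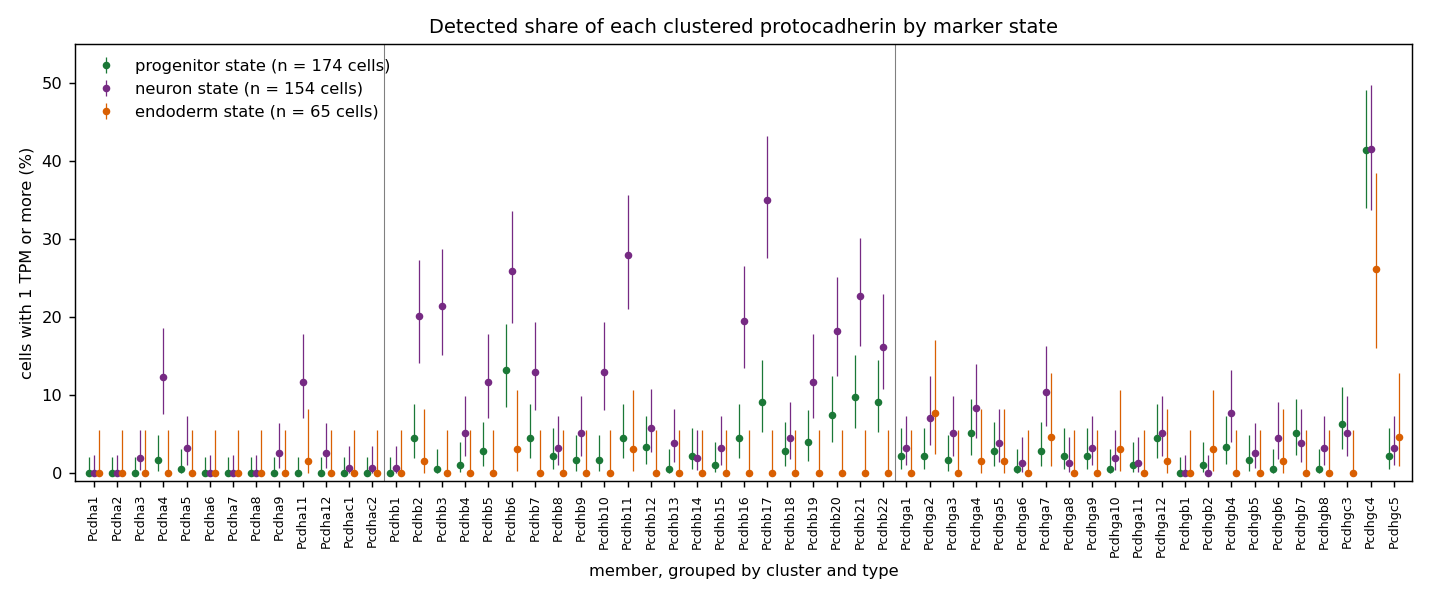
Percentage of cells in which each of the 57 members was detected at 1 TPM or more, by marker state. Members are grouped by cluster and type and follow their numbers within each type, which is not their order along the chromosome for gamma members. Pcdhgc4 stands near 41% in both the progenitor and neuron states, while most beta members are highest in the neuron state.

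In the alpha cluster, Pcdha4 and Pcdha11 were the members detected most often, and both were found mainly in neuron cells. Pcdha4 was detected in 3 progenitor cells (1.72%), 19 neuron cells (12.3%) and 0 of 65 endoderm cells. Its level ran from 0 to 58.2 TPM in neuron cells, with means of 0.103 TPM in progenitor and 1.51 TPM in neuron cells, a 13.5-fold difference. Pcdha11 was listed at 0 in every progenitor cell and was detected in 18 neuron cells (11.7%), 5 mixed cells and 1 endoderm cell, at up to 29.8 TPM. No fold is given for it, because the progenitor cells were all at 0. Within set 1 and set 2, the neuron share was 8.33% and 15.9% for Pcdha4 and 13.9% and 9.76% for Pcdha11.

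The other alpha members were rarer. Pcdha5 was detected in 9 cells, Pcdha9 in 6 and Pcdha12 in 5, of which 5, 4 and 4 were neuron cells. The C-type members Pcdhac1 and Pcdhac2 were each detected in 1 kept cell, a neuron cell in both cases, at 1.26 and 3.76 TPM. Both lie at the 3′ end of the variable exon array, next to the constant exons.

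In the beta cluster, 21 of 22 members had a higher detected share in neuron than in progenitor cells. Pcdhb17, a beta member without a shared constant exon like the rest of its cluster, was the most widely detected, in 84 cells (18.3%, interval 14.9 to 22.2). It was detected in 9.20% of progenitor cells (5.35 to 14.5), 35.1% of neuron cells (27.6 to 43.2) and 0 of 65 endoderm cells. Its level ran from 0 to 16.7 TPM in progenitor cells, 0 to 38.6 TPM in neuron cells and 0 to 0.4 TPM in endoderm cells, with means of 0.735, 4.16 and 0.00615 TPM. The neuron mean was 5.60-fold above the progenitor mean, and the neuron share was 36.1% and 34.1% in the 2 column sets.

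Pcdhb11 and Pcdhb3 showed larger differences on fewer cells. Pcdhb11 was detected in 8 progenitor cells (4.598%) and 43 neuron cells (27.9%), with means of 0.413 and 4.98 TPM, an 11.8-fold difference, and reached 100.8 TPM in 1 neuron cell. It was also detected in 2 endoderm cells. Pcdhb3 was detected in 1 progenitor cell and in 33 neuron cells (21.4%), with means of 0.0399 and 1.98 TPM, a 39.9-fold difference. Its progenitor mean came mostly from the 1 detected progenitor cell, at 4.9 TPM, and otherwise from cells below 1 TPM. Its neuron share was 20.8% and 21.95% in the 2 sets.

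The other beta members with the stricter call were between 2.31-fold and 10.8-fold higher in mean level in neuron cells. Pcdhb2 was detected in 4.598% of progenitor and 20.1% of neuron cells, and Pcdhb16 in 4.598% and 19.5%. Pcdhb10 was detected in 1.72% and 12.99%, and Pcdhb5 in 2.87% and 11.7%. Pcdhb21 was detected in 9.77% and 22.7%, with means of 1.24 and 2.88 TPM, the smallest fold of this group. None of Pcdhb10, Pcdhb16 and Pcdhb21 was above 0 in any endoderm cell.

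Not every common beta member differed so much. Pcdhb6, second in the cluster with 75 cells (16.4%), was detected in 13.2% of progenitor cells and 25.97% of neuron cells, but its means of 2.64 and 3.62 TPM were 1.37-fold apart, below the call. A single progenitor cell reached 90.9 TPM, above the neuron maximum of 57.3 TPM. Pcdhb20 was 2.10-fold higher in neuron cells, with shares of 7.47% and 18.2% whose intervals (4.04 to 12.4 and 12.4 to 25.2) touched. Pcdhb14, the 1 member called lower, was detected in 4 progenitor and 3 neuron cells, at up to 25.2 and 4.73 TPM. Pcdhb1, the least detected beta member, was found in 1 neuron cell at 1.26 TPM.

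Position along the beta array went with the detected share only loosely, with rho = 0.31 between gene order and share over all kept cells, 0.47 in progenitor cells and 0.13 in neuron cells (22 members). For the 19 gamma A and B members rho was −0.15 over all kept cells. Members common in one state tended to be common in the other. Between progenitor and neuron cells, detected shares correlated with r = 0.72 over the 22 beta members. The gamma value, r = 0.96 with rho = 0.72, includes Pcdhgc4, whose share is far above the others. The points of each correlation come from the same cells.

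The gamma C-type member Pcdhgc4 was common in all 3 states. It was detected in 180 cells (39.3%, interval 34.8 to 43.9), more than any other clustered protocadherin. The share was 41.4% of progenitor cells (33.98 to 49.1), 41.6% of neuron cells (33.7 to 49.8) and 26.2% of endoderm cells, where it was found in 17 of 65. Its level ran from 0 to 87.4 TPM in progenitor cells, 0 to 62.3 TPM in neuron cells and 0 to 44.9 TPM in endoderm cells, with means of 5.43, 5.96 and 3.42 TPM. The neuron to progenitor ratio of the means was 1.10 and the endoderm to progenitor ratio 0.631, so neither passed 2-fold. The neuron share was 36.1% in set 1 and 46.3% in set 2, against 45.7% and 36.6% for progenitor cells, so which of these states stood higher differed between the sets.

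The other gamma C-type members were much less common. Pcdhgc3 was detected in 24 cells, with shares of 6.32% in progenitor and 5.19% in neuron cells, and was listed at 0 in all endoderm cells. Pcdhgc5 was detected in 12 cells, in 4 progenitor, 5 neuron and 3 endoderm cells. Pcdhgc3 and Pcdhgc5 were thus each detected in far fewer cells than Pcdhgc4, although the 3 genes share their constant exons.

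Among the gamma A and B members, Pcdhga7 was the most widely detected, in 32 cells, with 2.87% of progenitor, 10.4% of neuron and 4.62% of endoderm cells. Pcdhga4 was found in 28 cells, with shares of 5.17%, 8.44% and 1.54%, and its maximum of 97.6 TPM lay in a neuron cell. Pcdhga2 was found in 25 cells, in 4 progenitor, 11 neuron and 5 endoderm cells. Pcdhgb4, detected in 24 cells as was Pcdhgc3, was found in 3.45% of progenitor and 7.79% of neuron cells and no endoderm cell. No gamma member met the stricter call in the neuron state, and the shares of all these members lay below that of Pcdhgc4 in each state.

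In endoderm cells few members were detected, apart from Pcdhgc4. Of the 57 members, 36 were listed at 0 in all 65 endoderm cells and 43 were never detected there. The detected share was lower in endoderm than in progenitor cells for 38 members, higher for 7 and equal for 12, and among the 22 beta members it was lower for 21 and equal for 1. For all 21973 genes the counts were 9970 lower and 6138 higher. After Pcdhgc4, the members found in most endoderm cells were Pcdhga2 in 5 cells, and Pcdhga7 and Pcdhgc5 in 3 each.

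Called by size against progenitor cells, 28 of the 35 members were lower in endoderm cells, where 29.5% of all genes tested were lower. Another 4 were higher (Pcdha11, Pcdhga2, Pcdhgb6 and Pcdhgc5, each from 1 to 5 endoderm cells), where 21.1% of all genes tested were higher. The share called lower among genes detected in 10 to 100 cells was 38.2%. With the stricter call 1 member was lower, Pcdhb21, where 16.1% of all genes tested and 6.27% of genes detected in 10 to 100 cells were, and 0 were higher, where 11.7% of all genes tested were. With 65 endoderm cells, 0 detections allow a share of up to 5.52%, which lies above the progenitor share of most members, so differences for single members were mostly not detectable at this number of cells. Of the 35, 17 were listed at 0 in endoderm cells. For the 17 above 0 in both states the median log2 fold change was −1.97. Rescaling cells by broadly detected genes moved the median of all genes by 0.25 on the log2 scale in this comparison.

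The sets of isoforms differed from cell to cell. Among distinct neuron cells all but 4 (97.2%) had at least 1 member. The number of different sets was 92.7% of the number of these cells, and 93.7% of the sets were seen in 1 cell only. Exact sets also differed between near-copy columns, as only 6 of 12 near-copy pairs in the neuron state had identical sets. The most common set, Pcdhgc4 alone, was found in 3 neuron cells. At least 1 beta member was present in 88.7% of distinct neuron cells and 2 or more in 66.7%, and the number of different beta sets was 80.8% of the number of cells with any. In distinct progenitor cells, 76.9% had at least 1 member. They held 81 different sets, 71.7% of the number of these cells, with Pcdhgc4 alone in 22 cells. In 58 distinct endoderm cells, 26 had at least 1 member, and 9 of these held Pcdhgc4 alone.

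Where a cell held 2 or more members, the member with the highest level took a median of 42.9% of the summed level in neuron cells, 54.4% in progenitor cells and 76.1% in endoderm cells. Of 1596 possible pairs of members, 643 (40.3%) were found together in at least 1 distinct neuron cell and 6.70% in at least 5. Of the pairs of beta members, 190 (82.3%) were seen. Pcdhb11 and Pcdhb17 were detected together in 21 distinct neuron cells (14.9%), where Pcdhb11 was detected in 40 and Pcdhb17 in 48. Pcdhb17 and Pcdhgc4 were also found together in 21. Cells with more genes above 0 contribute to many pairs at once.

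Taken as repeat measurements, the near copies showed how repeatable these sets were. Of 55 near-copy pairs, 46 had a member detected in at least 1 column, and the Jaccard index, the number of shared members over the number found in either column, had a median of 1 (0.8 to 1). In 26 pairs the sets were identical, and in 2 no member was shared. For 13738 other pairs of columns from the same state and different sets, the median was 0, the mean 0.0850 beside 0.834 for near copies, and 66.4% shared no member. In the neuron state alone, 12 near-copy pairs had a median index of 0.93, and the sets were identical in 6 of them. The number of members was equal in 38 of the 55 pairs and differed by at most 3. The pairs were found by correlation over all genes tested, which include members, so the index is a description.

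Repeatability went with level. A member at 1 to 5 TPM in one column was detected in its near copy in 90 of 110 cases (81.8%, interval 73.3 to 88.5). At 5 to 20 TPM this was so in 94.3% of cases (88.6 to 97.7), and at 20 TPM or more in 42 of 43 (97.7%). Low values were thus lost more often than high ones between columns that resembled each other this closely. Whether near copies come from the same cell or the same cDNA is not given in the sources used here. Loss of transcripts before cDNA was made was therefore not measured.

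**Figure D5:**
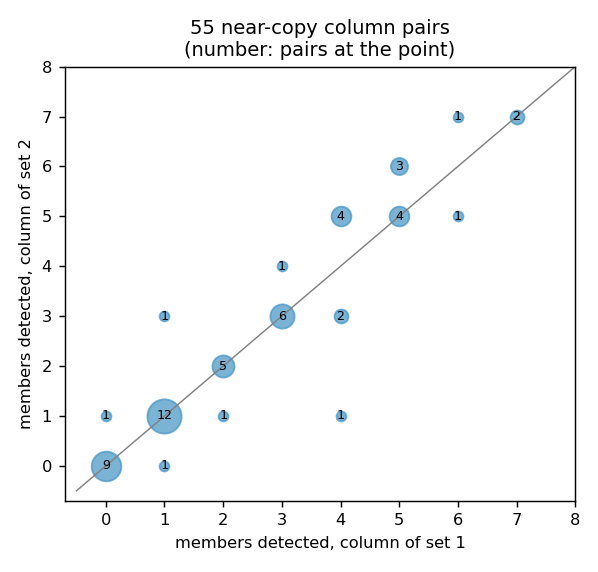
Number of members detected in the set 1 column (horizontal axis) and in the set 2 column (vertical axis) of each of the 55 near-copy pairs. The numbers are equal in 38 pairs and differ by at most 1 in 53.

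Genes that act on or beside the clustered protocadherins were counted by the same stricter call. Of 15 genes of promoter choice and silencing, which include Ctcf and cohesin subunits that loop the chosen promoters to distant enhancers, 0 were higher and 1 was lower in neuron cells, beside 6.82% and 1.05% of all genes tested. This was Rest, a repressor of neuronal genes, named here after its values were seen. It was detected in 62.1% of progenitor and 38.96% of neuron cells, with means of 5.26 and 2.32 TPM. Ctcf was detected in 92.8% of kept cells, with means of 89.5, 79.5 and 51.6 TPM in progenitor, neuron and endoderm cells.

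Among 9 nonclustered protocadherins tested of 11 listed, which lie outside the 3 clusters, 4 were higher in neuron cells and 1 was lower. For this and the next 2 lists, 6.82% of all genes tested were higher and 1.05% lower. Among genes detected in 10 to 100 cells these shares were 10.9% and 0.578%. Pcdh9 was detected in 1.72% of progenitor and 19.5% of neuron cells with a 12.7-fold higher mean, and Pcdh10 in 2.87% and 20.1% with a 7.97-fold higher mean. Of 7 atypical cadherins tested of 8 listed, Celsr3, which acts in axon guidance, was higher, at 4.83-fold, and 0 were lower. Of 12 partners in signalling, processing and adhesion tested of 13 listed, 1 was higher, Cyfip2, named after its values were seen, and 0 were lower. In endoderm against progenitor cells, 6 of the 7 atypical cadherins, 3 of the 9 nonclustered protocadherins, 3 of the 12 partners and 1 of the 15 promoter genes were lower, beside 16.1% of all genes tested. In the other direction 1 gene of these lists was higher, beside 11.7% of all genes tested. This was Adam10, a protease that cleaves cadherins, at 2.62-fold and named after its values were seen. Fat4, which acts in planar cell polarity, was detected in 51.7% of progenitor cells and 0 of 65 endoderm cells. Its ligand Dchs1 was detected in 18.4% and 0, and Nlgn1, a synaptic adhesion protein, in 16.1% and 1.54%. These 3 had the largest folds among the stricter calls of these lists. Celsr2 and Celsr1, also named after their values were seen, met the stricter call too. Celsr2 was detected in 82.2% of progenitor and 9.23% of endoderm cells, and Celsr1 in 25.3% and 1.54%. Some adhesion genes differed less. Nlgn2 was detected in 18.4% of progenitor and 18.5% of endoderm cells, and Fat1, which met the stricter call, in 53.4% and 32.3%, both named after their values were seen.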

How the data were processed

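Single-cell RNA-seq libraries of 1 group were used. Per the submitters' processing notes, STAR, RSEM and mm10 were used. The gene annotation, tool versions and earlier filters were not given in the sources used here. No unit is stated in the table that the authors deposited, and it was taken as TPM from RSEM, since its decimals sum in each cell to between 54.2% and 95.1% of a full TPM total. TPM keeps no depth, so read depth per cell is unknown and the precision comes from the number of cells. Columns could not be tied to single libraries, which share 1 label.

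The members and lists were chosen with earlier results of these data known. Computation used Python 3.11.15, numpy 2.4.6 and scipy 1.17.1. Detection was 1 TPM or more, and folds are of mean TPM plus 0.01. No test was run, because cells are not replicates. The calling rules were tested on simulated data, where a change in detected share was simulated only for widely detected genes. Most members are detected in fewer cells than those genes. Named were every C-type member, the 5 most and the least detected members of each cluster, all with the stricter call and, of the companion lists, the 3 genes with the largest fold among strict calls per comparison. Doublets were not called. Alternatives covered columns, cell filters, state limits, detection, fold, pseudocount, averaging and scaling.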

Additional observations from a re-analysis of the deposited data

How the results depend on the processing

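The count of members at least 2-fold higher in neuron than in progenitor cells (24) became 13 within set 2. It became 8 with 1 TPM added and 0 with the difference of mean log2 values, which weights the many cells at 0. On that scale a member at 0 in most cells can hardly reach a 2-fold difference, so counts of 0 there say little. The count lower (1) became 0 within set 2, without the 5% of cells with the most genes, with 1 TPM added and with mean log2 values, 2 with no minimum of cells and 3 with all 10 neuron markers required, an alternative chosen after seeing the data. The stricter count higher (10) became 5 within set 1, 5 within set 2 and 0 with mean log2 values. In endoderm against progenitor cells, the 2-fold count higher (4) became 2 within set 1, 1 within set 2, and 0 with 1 TPM added and with mean log2 values; the count lower (28) became 15 within set 2, 3 with 1 TPM added and 0 with mean log2 values. The stricter count lower (1) became 0 with distinct cells, within either set, without the 5% of cells with the most genes and with mean log2 values, and 3 with 7 markers per state or markers at 5 TPM. The median number of members in neuron cells (4) became 2 with members counted at 5 TPM and 1.5 at 10 TPM, and in progenitor cells (1) it became 0 at 10 TPM. The median Jaccard index (1) became 0.75 at 5 TPM. Counts without Pcdhgc4 and among genes of 10 to 100 cells were also chosen after seeing the data. Of the 10 members with the stricter call, Pcdha11 has no fold and was not followed singly. The other 9 kept their direction in all 15 alternatives; Pcdhb5 lost the call in 8, Pcdhb21 in 6, Pcdha4, Pcdhb2, Pcdhb10, Pcdhb11 and Pcdhb16 in 2 each, and Pcdhb3 and Pcdhb17 in 1 each. No paired analysis was possible because all cells form 1 group. Except where a value bears on it, the cause of these changes was not tested. Unknown depth and 65 endoderm cells limit the rare members most.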
